A study of Homo sapiens with 4 samples.

Results

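ZBED6, ZNF587 and CARF are 3 genes for DNA-binding transcription factors, and they were taken by name from a deposited list of 38 genes. The list holds genes that the authors marked as higher in HCT116 cells overexpressing NCBP2 than in cells of the PCDH control. HCT116 is an established human colorectal cancer cell line, and NCBP2 is the subunit of the nuclear cap-binding complex that holds the 5′ cap of newly made transcripts. Each group had 2 RNA sequencing libraries from total RNA: 2 of PCDH control cells, whose table columns are headed EV, and 2 of cells overexpressing NCBP2. PCDH was the study's vector control in the same cell line and culture serum. Nothing in the labels says that the libraries came from separate cultures or cell pools, and their spread may be technical. NCBP2 itself had a mean level of 68.5 ± 12.9 in the controls and 1081 ± 20.7 with overexpression (SD, n = 2 each). No symbol of the colorectal epithelial marker list (10 genes) or of the other cell type list (5 genes) was among the 38, so the identity of the cells could not be checked in this table.

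The 3 factors belong to different families. ZBED6 carries BED-type zinc fingers and derives from a domesticated DNA transposon. It is encoded inside another gene, ZC3H11A, whose product takes part in mRNA export, and in pig and mouse muscle it represses IGF2. ZNF587 is a KRAB zinc finger protein. Proteins of this family bind DNA, often in transposable elements, and recruit the corepressor TRIM28 and the histone methyltransferase SETDB1. ZNF587 and its close relative ZNF417 are known to repress human endogenous retroviruses of the HERV-K group. CARF is a calcium-responsive transcription factor, named for its action on a calcium response element of the Bdnf promoter in rodent neurons. The symbol CARF is also used for the product of CDKN2AIP, which is a different gene. The description and identifier in the table (ENSG00000138380) are those of the calcium-responsive factor.

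The sequences bear on how the levels of these genes can be read, because a read that occurs in more than 1 gene can be assigned to either. ZNF587 (ENSG00000198466; GRCh38 chromosome 19, 57849857 to 57865112, plus strand) has a near-identical relative in ZNF417, on the minus strand of the same chromosome. The longest annotated coding sequences of both genes have 1725 bases and aligned without a gap at 99.1% identity, with 16 differing bases. The longest stretch without a difference was 538 bases. The densest 120 coding bases, from 867 to 986 counted from the start codon, held 4 of the differences. They are shown because they are the part of the coding sequence where reads of the 2 genes are easiest to tell apart. Capitals mark the differing bases, in GENCODE 29 transcripts.
ZNF587: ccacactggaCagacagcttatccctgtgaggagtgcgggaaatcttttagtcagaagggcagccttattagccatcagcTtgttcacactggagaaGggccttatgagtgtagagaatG
ZNF417: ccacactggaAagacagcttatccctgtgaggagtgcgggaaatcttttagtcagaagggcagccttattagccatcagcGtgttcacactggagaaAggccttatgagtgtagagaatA

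Windows of 100 bases along the longest transcript of each gene were then looked up in all GENCODE 29 transcripts of other genes, on the same strand. The sources used here give no read length. For CARF (longest transcript 5938 bases), 100% of the windows occurred in no other gene. For ZNF587 (6882 bases) the share was 87.6% over the whole transcript and 51.4% of 1626 windows within the coding sequence. ZNF417 shared 843 windows with it and the overlapping gene AC010522.1 shared 403. On the opposite strand, ZNF814, another zinc finger gene, overlaps 92.5% of the coding bases of ZNF587. With both strands counted, 66.2% of the ZNF587 windows over the whole transcript remained unique. The coding sequence spans transcript bases 183 to 1907. Stretches shared with ZNF417 (210 to 747) and ZNF814 (345 to 2409) left only coding windows beginning before base 210 unique. The sources used here do not say if counting used the strand, so reads of ZNF814 and ZNF587 may not have been told apart. For ZBED6 (12481 bases) only 4.67% of the windows were unique, and within the 2937 coding bases the share was 0%, because every coding base also lies in an annotated exon of ZC3H11A. Neither ZC3H11A, ZNF417 nor ZNF814 was among the 38 genes, and their levels were not analysed here.

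**Figure D1:**
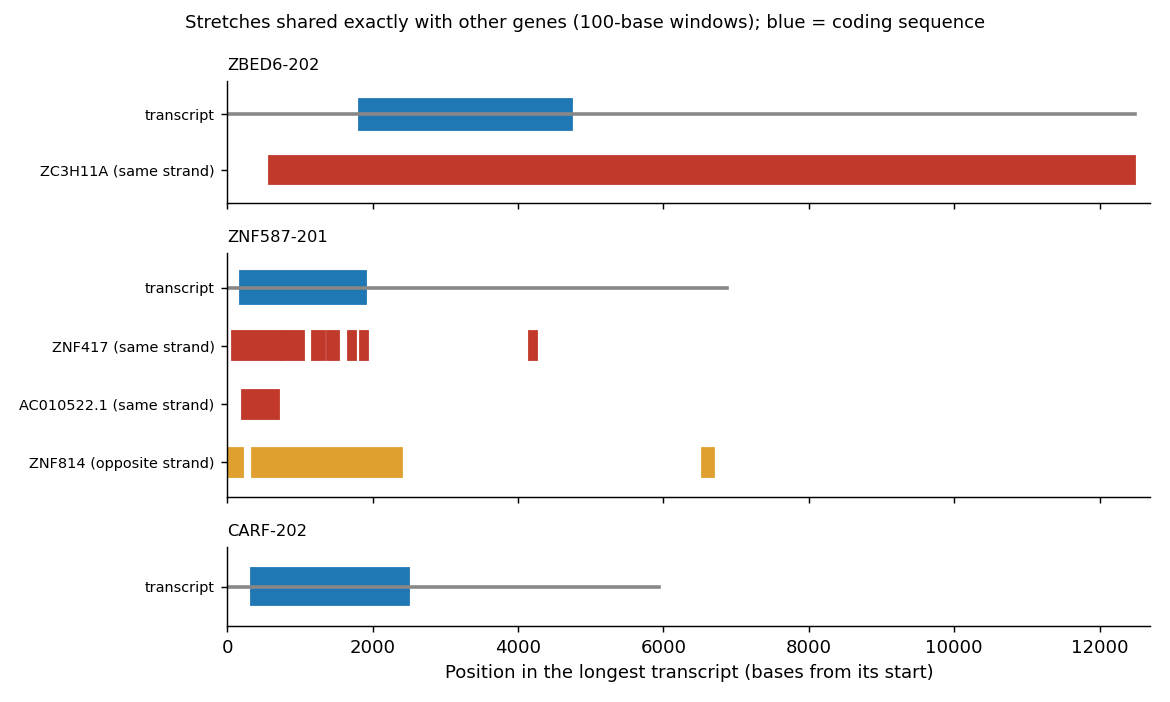
Position along the longest GENCODE 29 transcript of each gene, in bases from its start; the blue box is the coding sequence and the bars below it are stretches found exactly in transcripts of another gene (red, same strand; amber, opposite strand), in windows of 100 bases. ZBED6 is shared with ZC3H11A over its whole coding sequence, ZNF587 mainly within its coding sequence, and CARF has no shared stretch.

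ZBED6 (ENSG00000257315; GRCh38 chromosome 1, 203795714 to 203854999, plus strand) lies within the bounds of ZC3H11A (203795654 to 203854999, plus strand). Its coding frame is 1 uninterrupted segment from 203797523 to 203800459. Of the 15 annotated ZC3H11A transcripts, 1 holds the whole frame in 1 exon, 1 overlaps part of it and 9 have it inside an intron. GENCODE 29 also files a second transcript under ZBED6, with 16 coding segments further downstream that are shared with ZC3H11A. A level given for ZBED6 may therefore contain reads of ZC3H11A transcripts, and the table does not show how such reads were assigned.

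The start regions show the same nesting. The RefSeq promoter table (GRCh38.p14) had entries for 3 of the 3 genes. The first ZBED6 start in it gives the same 300 bases as the start of ZC3H11A, so the 2 genes share this promoter. The sequences run from 250 bases before to 50 bases after the start and are printed because the 3 genes were listed together as higher with NCBP2. Capitals mark matches to an E-box and a CCAAT box, the motifs found of 5 searched on both strands. No searched motif overlapped another in these sequences.
ZBED6, chr1:203795373-203795672, plus strand: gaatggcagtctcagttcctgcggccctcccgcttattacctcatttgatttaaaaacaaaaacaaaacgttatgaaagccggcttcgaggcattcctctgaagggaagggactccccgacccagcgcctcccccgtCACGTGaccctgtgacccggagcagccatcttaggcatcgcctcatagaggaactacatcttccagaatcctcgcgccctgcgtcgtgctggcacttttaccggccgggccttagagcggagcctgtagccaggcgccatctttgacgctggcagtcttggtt
ZNF587, chr19:57849609-57849908, plus strand: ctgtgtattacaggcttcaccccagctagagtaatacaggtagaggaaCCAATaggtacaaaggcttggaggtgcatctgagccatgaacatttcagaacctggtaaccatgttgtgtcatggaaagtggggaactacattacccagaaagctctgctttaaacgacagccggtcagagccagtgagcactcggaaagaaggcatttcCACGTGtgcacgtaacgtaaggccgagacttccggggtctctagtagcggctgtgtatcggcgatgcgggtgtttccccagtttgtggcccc
CARF, chr2:202912025-202912324, plus strand: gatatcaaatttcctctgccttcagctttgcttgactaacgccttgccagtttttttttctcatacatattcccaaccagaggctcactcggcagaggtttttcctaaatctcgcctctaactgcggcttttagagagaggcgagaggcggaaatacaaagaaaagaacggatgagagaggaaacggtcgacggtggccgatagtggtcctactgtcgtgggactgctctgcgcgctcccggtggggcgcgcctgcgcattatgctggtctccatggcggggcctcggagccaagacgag

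The E-box CACGTG, a core bound by many basic helix-loop-helix factors, occurred once in the ZBED6 promoter, its first base at -113 from the start, and once in that of ZNF587, at -42. It did not occur in the CARF window. Of 35116 promoters of this length, 7.26% hold it. The CCAAT box occurred once, in ZNF587, and in 34.6% of all promoters. The cAMP response element TGACGTCA (1.85% of all promoters), the GC box GGGCGG (45.0%) and GCTCGC, the motif of ZBED6 at IGF2 (17.4%), occurred in none of the 3 windows. The GC content was 56.7% for ZBED6, 51.7% for ZNF587 and 54.0% for CARF, against a median of 58.7% over all promoters. These matches describe letters in the windows and were not set against any binding data. The motifs were chosen after the promoters were seen, so the shares over all promoters give no measure of enrichment.

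Among the 3 genes, ZBED6 was the one with separate groups. Its level was 1.73 and 0.76 in control libraries 1 and 2 and 3.14 and 3.62 in NCBP2 libraries 1 and 2. The groups did not overlap, and the lower NCBP2 library was 1.82 times the higher control. Group means were 1.25 ± 0.686 and 3.38 ± 0.339 (SD, n = 2 each), which gives a ratio of 2.71. In bulk RNA, fewer cells expressing a gene and less RNA of it per cell cannot be told apart. On the log2(level + 1) scale, which understates changes at low levels, the difference was 1.00 ± 0.33 (SE from the 2 libraries of each group). The gene was chosen on this contrast, so the values are a description and no test was made. The 4 single ratios of an NCBP2 library to a control library ran from 1.82 to 4.76, and most of that range came from the choice of control.

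ZNF587 did not separate. Its level was 2.68 and 0.34 in control libraries 1 and 2 and 2.32 and 4.09 in NCBP2 libraries 1 and 2. NCBP2 library 1 lay below control library 1, while control library 2 was far below the other 3 libraries. The group means of 1.51 ± 1.65 and 3.21 ± 1.25 (SD, n = 2 each) had a ratio of 2.12, and the difference of means was about as large as the SD of the controls alone. The log2(level + 1) difference was 0.89 ± 0.79 (SE). Against control library 1 the NCBP2 mean was 1.20-fold, and against control library 2 it was 9.43-fold.

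CARF (GRCh38 chromosome 2, 202912214 to 202987063, plus strand) did not separate either. Its level was 1.97 and 0.42 in control libraries 1 and 2 and 1.68 and 2.21 in NCBP2 libraries 1 and 2. Control library 1 lay between the NCBP2 libraries, and control library 2 alone was low. The group means of 1.20 ± 1.10 and 1.95 ± 0.375 (SD, n = 2 each) had a ratio of 1.63, and the log2(level + 1) difference was 0.51 ± 0.55 (SE), smaller than its error. Against control library 1 the NCBP2 mean was 0.987-fold, that is, not higher, and against control library 2 it was 4.63-fold.

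**Figure D2:**
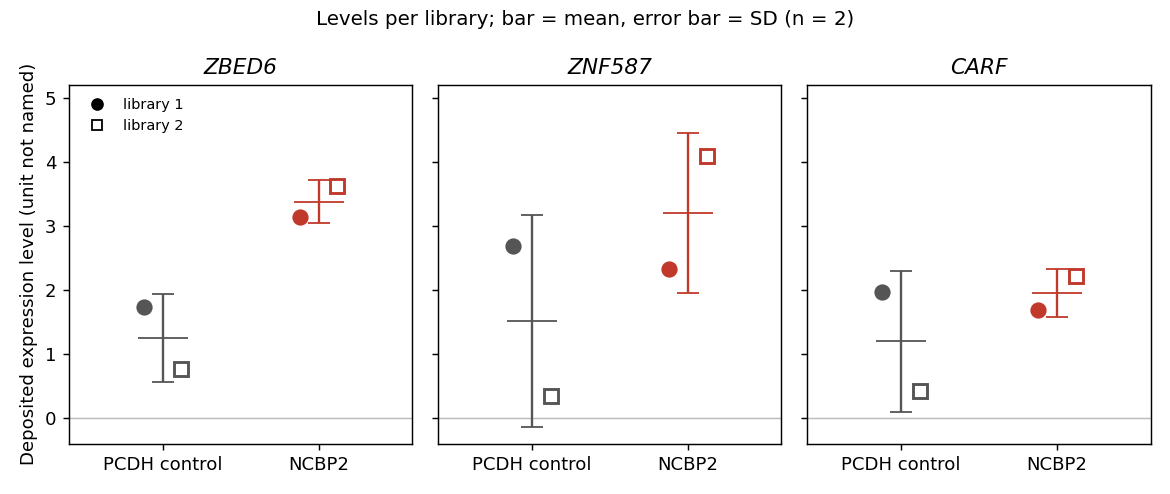
Deposited expression level of each gene (unit not named in the table) in the 2 PCDH control and 2 NCBP2 libraries; filled circles are library 1, open squares library 2, horizontal bars the group means and error bars the SD (n = 2). For ZBED6 both NCBP2 libraries (3.14 and 3.62) lie above both controls, whereas for ZNF587 and CARF control library 1 lies above NCBP2 library 1.

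Across the whole list, the groups were separate in 86.8% of the 38 genes, against 1 of the 3 genes here, ZBED6. ZNF587 and CARF are thus 2 of the 5 listed genes whose groups overlapped. A ratio of mean levels of at least 2 was reached by 83.9% of the 31 listed genes with a control level above 0, and by 2 of the 3 genes here, ZBED6 and ZNF587. By this ratio ZBED6 ranked 14, ZNF587 24 and CARF 30 of 31. The list was picked by the authors as higher on the same libraries, so these shares are not those of all genes.

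The low control library was a common feature of the 3 genes. Control library 2 was below control library 1 in 28 of the 30 listed genes in which the controls differed, and all 3 genes here are among them. The ratio of control library 2 to control library 1 was 0.127 for ZNF587, the lowest of the 28 genes above 0 in both controls. It was 0.213 for CARF, the third lowest, and 0.439 for ZBED6, which ranked 11. The median over these 28 genes was 0.552. When the NCBP2 mean was set against control library 1 alone, CARF (0.987) and ZNF587 (1.20) had the lowest ratios of the 28 genes, and ZBED6 (1.95) was near the median of 1.94. Against control library 2 alone all 3 genes lay above the median of 4.14, with 9.43 for ZNF587, 4.63 for CARF and 4.45 for ZBED6. Whether control library 2 differs in depth or RNA quality was not tested, since the table holds neither counts nor other genes.

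**Figure D3:**
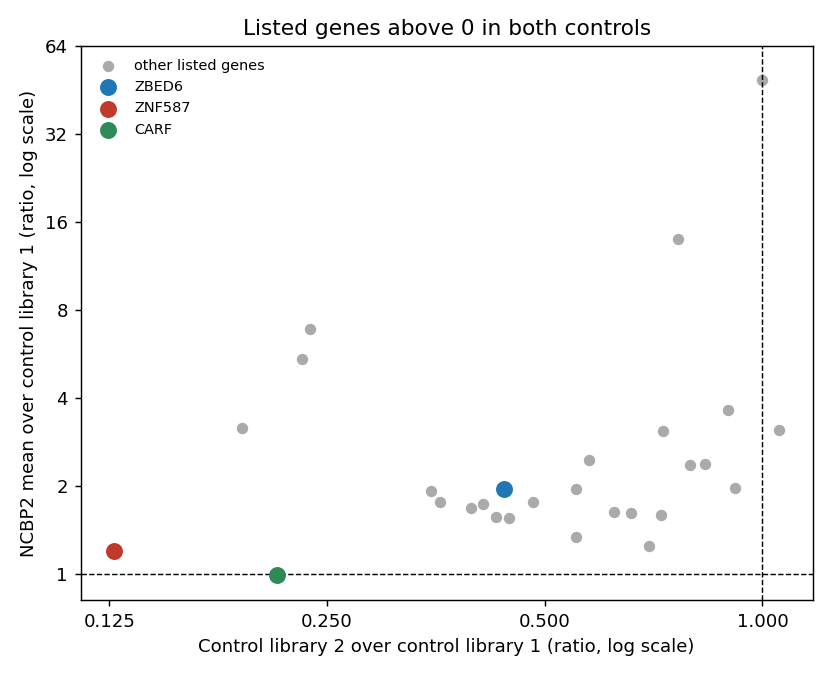
Each point is 1 of the 28 listed genes above 0 in both controls; the x axis is the level in control library 2 over control library 1 and the y axis the mean NCBP2 level over control library 1, both as ratios on log scales, with dashed lines at 1. ZNF587 (0.127, 1.20) and CARF (0.213, 0.987) lie at the lower left, with the lowest y values, and ZBED6 (0.439, 1.95) lies among the other genes.

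The authors' own statistics come from these libraries too and were used to pick the list. In the authors' deposited table the fold of ZBED6 was 2.53, with 9.31e-06 as its p-value and 0.0194 after adjustment. An adjusted p under 0.05 was given to 7.89% of the 38 listed genes, and ZBED6 was 1 of them. For ZNF587 the authors' deposited table gave a fold of 2.12 with a p-value of 0.0398, which became 0.978 after adjustment. CARF had the same rounded fold in the authors' deposited table, 2.12, a p-value of 0.0210 and the same adjusted value, 0.978. The authors' fold was close to the ratio of mean levels for ZNF587 (2.12 in both) and ZBED6 (2.53 against 2.71). For CARF the fold of 2.12 in the authors' deposited table was above the ratio of levels of 1.63. For NCBP2 itself the authors' deposited table gave a fold of 5.24 against a ratio of mean levels of 15.8, so the authors' folds did not track the deposited levels in every gene.

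The adjusted p-values also bound where the 3 genes stood among all genes the authors adjusted. If the authors used the Benjamini-Hochberg adjustment and NCBP2 ranked first, the adjustment covered 17776 genes. An adjusted p-value that is not the gene's own limits its rank from above. ZBED6 then ranked between 4 and 8. CARF ranked between 101 and 381, and ZNF587 between 101 and 722. With p-values spread evenly over the 17776 genes, 373 would be expected at or below the p-value of CARF. For ZNF587 the number was 707 and for ZBED6 0.165. For CARF and ZNF587 the highest possible rank is the expected number divided by the adjusted p-value of 0.978. The closeness of these values is thus set by the arithmetic and is no result. The ranks themselves may lie anywhere within the bounds given. The 0.978 of ZNF587 and CARF was shared by 19 listed genes.

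The listed genes with the most similar pattern were found by dividing each gene's 4 levels by its highest and taking the root mean square difference over the 4 libraries. For ZBED6 these were GRIN2B (0.0387), TTLL13P (0.0673) and LRP1B (0.0733), an NMDA receptor subunit gene, a pseudogene by its description and an LDL receptor family gene. All 3 of these nearest genes had separate groups, as did 86.8% of the 38 listed genes. For ZNF587 the nearest were ANKRD36C (0.114), LINC02458 (0.127) and IDI2-AS1 (0.130). The groups of ANKRD36C and LINC02458 were separate, although those of ZNF587 were not, and those of IDI2-AS1 overlapped. For CARF the nearest was ZNF587 (0.162), ahead of PTHLH (0.177) and GRIN2B (0.178), so its nearest genes were less alike than those of ZBED6. Seen from ZBED6, ZNF587 came 16 and CARF 21 in likeness among the other listed genes. All 3 genes were highest in NCBP2 library 2 and lowest in control library 2, as were the other genes named here as most like them. NCBP2 library 2 was above NCBP2 library 1 in 23 of the 38 listed genes. Control library 2 was below control library 1 in 28 of the 30 whose controls differed. The order is thus not particular to the 3 genes.

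**Figure D4:**
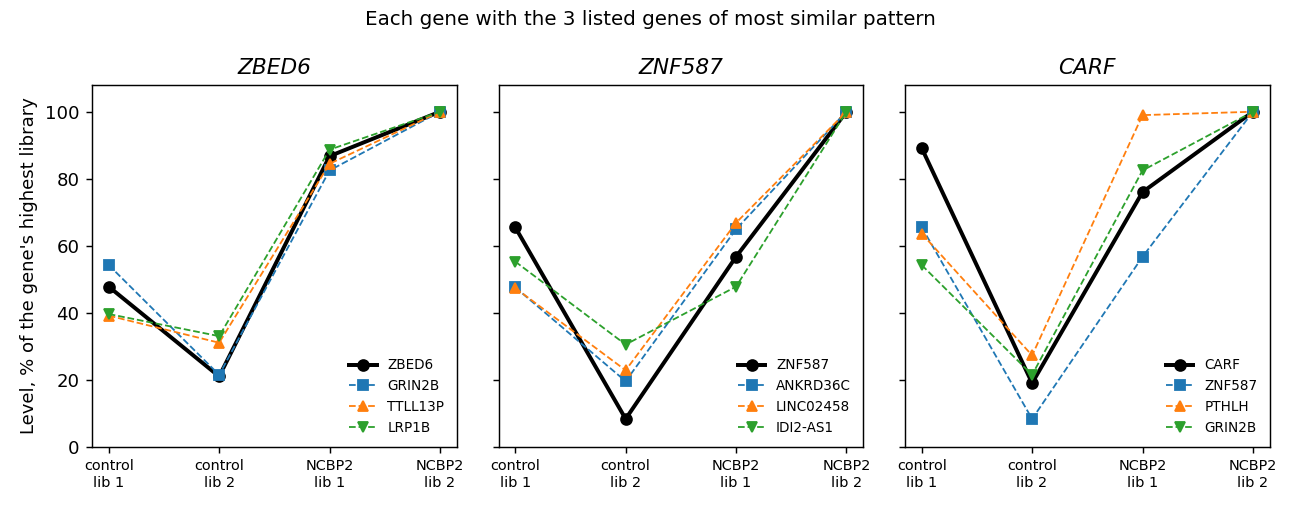
Level in each library as a percentage of the gene's highest library, for each of the 3 genes (black) and the 3 listed genes with the smallest root mean square difference from it; the lines only join values of 1 gene, since libraries have no order. ZBED6 and its nearest genes reached at most 54.2% in the controls, while CARF stood at 89.1% in control library 1 and 19.0% in control library 2.

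Other genes of the pathways were looked for by name. None of 11 ZBED family members and partners (ZC3H11A and IGF2 included) was among the 38 genes. Nor was any of 18 genes of the KRAB repressor machinery and relatives of ZNF587, such as TRIM28, SETDB1, ZNF417 and ZNF814. The same held for 16 genes of calcium-responsive transcription, such as BDNF, CREB1 and FOS. Of 9 cap-binding symbols, NCBP2 was listed. A description with the words zinc finger, transcription factor or homeobox was given to 5 of the 38 genes, namely the 3 genes here and the pseudogenes RHOXF1P3 and BPTFP1. No level of the genes outside the list was analysed here.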

How the data were processed

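Per the labels' protocols, total RNA of HCT116 cells was sequenced, with 2 libraries per group. The deposited table of 38 genes holds, per the file headers, an expression level (signal, rounded to 0.01, unit not named) per library, the group means, and the authors' fold change (a ratio), its log2, p-value and adjusted p-value. Bowtie 0.12.2 and the mouse build mm9 stand in the submitters' processing notes, although the identifiers are human; the sources used here name no alignment settings or annotation. Columns headed EV were read as the PCDH control and not tied to single samples. Depth is unknown, so no counting interval is given.

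Python 3.11.15, pandas 2.3.3 and numpy 2.4.6 gave means, SDs, ratios and log2(level + 1) differences. Positions and transcripts came from GENCODE 29 (GRCh38), matched by Ensembl identifier (36 of 38 genes), and promoters from RefSeq (GRCh38.p14). Relatives were searched with BLAST+ 2.17.0 and coding sequences aligned with Biopython 1.88. A gene rank under the authors' adjustment was read only within 1e-06 of a whole number. The genes were chosen by name, and the members and lists with earlier results of these data known; the motifs were chosen after the promoters were seen. Named genes were the 3 members, NCBP2, the 3 listed genes most like each, overlapping or near-identical genes, and any listed member of the gene lists. No test was made on the levels, since the members were picked on the same contrast, and 2 against 2 libraries allow no two-sided exact permutation p under 0.333.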

Additional observations from a re-analysis of the deposited data

How the results depend on the processing

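The log2(level + 1) difference of ZBED6 (1.00) was 1.47 with a pseudocount of 0.1, 1.44 as the log2 ratio of group means and 1.34 as the log2 fold change of the authors' deposited table. Leaving out 1 library at a time gave 0.68 to 1.31. That of ZNF587 (0.89) lay between 0.16, without control library 2, and 1.62, without control library 1. That of CARF (0.51) was 1.08 in the authors' deposited table. Leaving out 1 library at a time gave -0.018 to 1.05, and the reversal to -0.018 came without control library 2. The count of genes with separate groups (1) was 1 to 3 with any 1 library left out. Such omissions cannot lower it. The count at least 2-fold higher by mean levels (2) was 0 on the log2(level + 1) scale and 0 to 3 when a library was left out, with 0 without control library 2, 1 without NCBP2 library 2 and 3 without control library 1. The count past the authors' adjusted p limit (1) was 0 at 0.01. These counts were not made over the whole list at the changed settings, so they do not set the 3 genes apart from it. For all of these, the cause was not tested.

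The share of unique ZNF587 windows was 79.8%, 84.7% and 91.3% at 50, 75 and 150 bases. The lookup on both strands was chosen after seeing the data. No paired analysis was possible because no single control sample could be assigned to a control column, so the column numbers are not known to pair them with the NCBP2 libraries, and no test was made on the levels. The ratios of NCBP2 to control columns with the numbers 1 and 2 were 1.82 and 4.76 for ZBED6, 0.866 and 12.03 for ZNF587, and 0.853 and 5.26 for CARF. The planned count of C2H2 fingers was not run, since no protein sequence was used here.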
